A study of Mus musculus with 20 samples.

Results

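The neuropeptide precursor genes were followed in amygdala RNA of 20 male mice, 1 mouse per array, on whole-transcript gene arrays. Members were the probe sets whose only gene symbol is on a list of 36 precursor genes, and 33 of these genes had a probe set, each exactly 1, among the 28767 probe sets and 19933 gene symbols of the table. Agrp, Calca and Pthlh were not analysed here. The arrays fall into 4 groups of 5, named KO stress, KO con, WT stress and WT con. KO mice lack a functional serotonin transporter (5-HTT, gene Slc6a4) through a constitutive targeted allele present in every cell, and WT mice are wild type offspring of the same heterozygous crosses. All mice had a C57BL/6 background by the labels (C57BL/6J in the methods), were 7 months old by their labels, had lived alone before the test and had been through an elevated plus-maze. Stress was 1 min in water of 22 °C and con was 1 min in the home cage, each followed by isoflurane and decapitation, and by the methods the tissue was secured within minutes. Left and right amygdala of a mouse were combined.

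Values are normalized log2 signals, and a difference of 1 is a change of 2-fold. Array medians lay between 6.59 and 6.82, and pairs of arrays correlated at 0.948 to 0.996. The lowest median correlations to the other arrays were those of WT stress replicate 1 (0.961) and WT con replicate 1 (0.978), which are called the arrays that stand apart. WT stress replicate 4 (0.980) and WT stress replicate 3 (0.981) came close to WT con replicate 1, so the label is clear only for WT stress replicate 1. Of 9 measured markers of amygdala tissue, 7 averaged above the median of all probe sets, among them Gad1 and Gad2 of inhibitory neurons and Slc17a7 of excitatory neurons, and Neurod6 and Rspo2 averaged below it. The probe set of Slc6a4 read 8.10 to 8.38 in the arrays labelled KO stress and 8.11 to 8.20 in those labelled KO con, against 6.30 to 6.55 in WT stress and 5.82 to 7.82 in WT con. Its signal was thus higher in the arrays labelled KO, and since no source used here places its probes inside or outside the deletion, it does not check the labels. Every genotype direction below is one between arrays as labelled.

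Neuropeptides are made as larger precursors that prohormone convertases cut in dense core vesicles. The released peptides act chiefly on G protein-coupled receptors, mostly more slowly and farther from the release site than glutamate or GABA. In the amygdala, precursors such as cholecystokinin, neurotensin, tachykinin and galanin mark different sets of local neurons and are known for parts in fear, arousal and feeding. Other precursors on the list, such as those of melanin-concentrating hormone and of the orexins, are made mainly by hypothalamic neurons whose axons reach the amygdala, and the last group comprises vascular and calcitonin family peptides and the granins, proteins of the vesicle itself.

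In no comparison did a member meet the criterion stated in the methods, a change of more than 1.5-fold at an unadjusted p below 0.05, the p here being limma's. Several members differed widely between mice of the same group. The pooled within-group SD was 1.28 for Trh, 1.22 for Pmch, 1.06 for Tac2 and 1.02 for Cck, in log2 units. Of all probe sets, 0.0209% had an SD as large as that of Trh, 0.0278% as large as that of Pmch, 0.08% as large as that of Tac2 and 0.115% as large as that of Cck. Nts (0.77), Gal (0.67), Adcyap1 (0.61) and Scg2 (0.46) followed, so that 8 of the 33 members lay at or above the 95th percentile of all probe sets, which is 0.43. The median SD was 0.22 over the members and 0.18 over all probe sets, and 14 of 33 members were at or above the upper quartile of all probe sets, 0.25. At the other end, Iapp had an SD of 0.11.

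**Figure D1:**
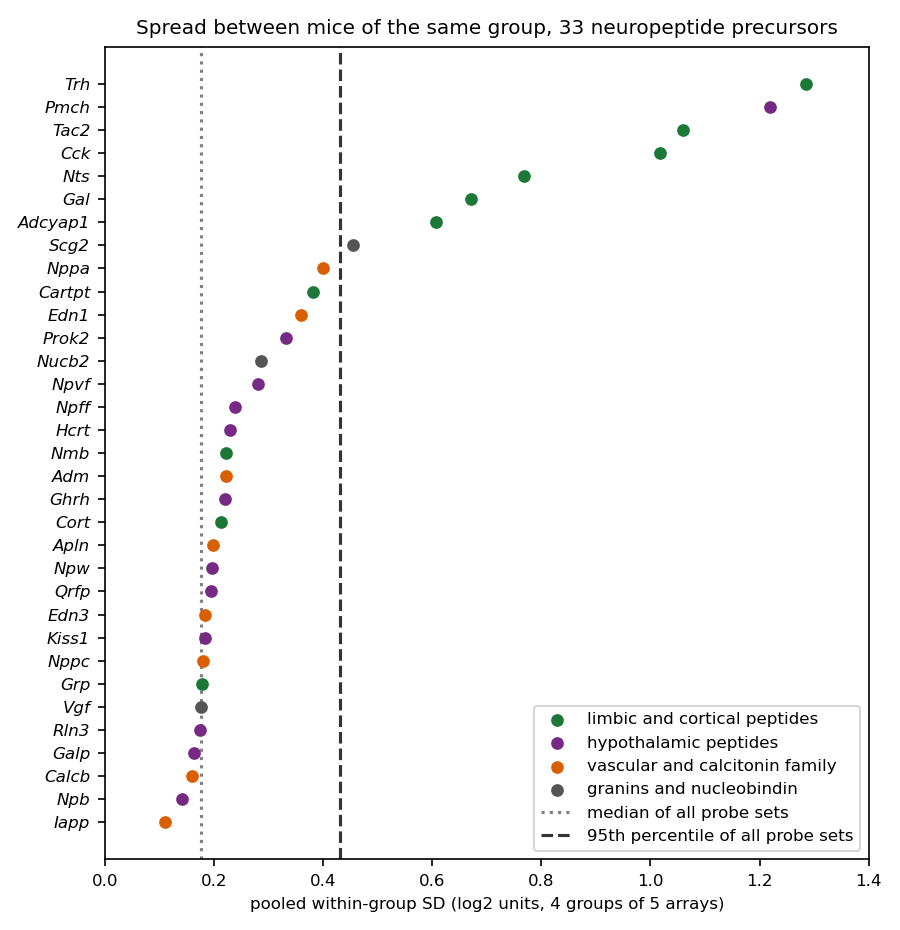
Pooled within-group SD in log2 units (x axis) of the 33 precursors (y axis), from 4 groups of 5 arrays, coloured by role, with lines at the median and the 95th percentile of all probe sets. The 8 precursors from Trh to Scg2 lie at or beyond the 95th percentile of 0.43, and the other 25 lie below it.

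Trh encodes the precursor of thyrotropin-releasing hormone, which drives the thyroid axis from the hypothalamus and is also made in the amygdala. Its log2 values were 9.54, 6.26, 9.68, 6.30 and 6.26 in KO stress replicates 1 to 5, and 8.08, 7.93, 7.07, 6.30 and 7.66 in KO con. They were 6.26, 8.89, 8.31, 5.74 and 6.05 in WT stress, and 7.65, 7.14, 6.09, 6.17 and 7.79 in WT con. Each group held low arrays near 6 and high arrays above 7, and all 4 groups overlapped. The highest KO stress array exceeded the lowest by 10.8-fold, and over all arrays the range was 15.4-fold. Over the 20 arrays, 9 lay between 5.74 and 6.30 and 11 between 7.07 and 9.68.

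Pmch encodes the precursor of melanin-concentrating hormone, a peptide of lateral hypothalamic neurons that promotes feeding and sleep. It read 7.64, 5.42, 9.13, 5.70 and 5.21 in KO stress and 6.21, 5.42, 7.84, 5.18 and 5.36 in KO con. In WT stress it read 5.31, 5.93, 8.51, 5.44 and 5.46, and in WT con 5.32, 5.43, 5.58, 5.31 and 5.28. Only 4 of the 20 arrays rose above 7, namely KO stress replicates 1 and 3, KO con replicate 3 and WT stress replicate 3. The WT con arrays stayed within 1.23-fold of each other, whereas the KO stress arrays ranged over 15.1-fold.

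Tac2 encodes the precursor of neurokinin B, a tachykinin made by neurons of the central and extended amygdala. Its values were 7.78, 6.67, 7.93, 9.10 and 6.53 in KO stress and 7.12, 8.69, 7.72, 6.55 and 8.13 in KO con. They were 5.96, 8.55, 7.85, 5.37 and 8.67 in WT stress and 6.82, 7.53, 6.13, 6.17 and 6.15 in WT con. WT con had the lowest mean (6.56 ± 0.61, SD, n = 5), and the WT stress arrays spanned 9.81-fold.

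Cck encodes cholecystokinin, in the cortex and basolateral amygdala a product of excitatory neurons and of a class of interneurons. Its values were 7.71, 7.06, 8.75, 9.16 and 8.53 in KO stress and 9.37, 7.16, 9.37, 7.95 and 8.84 in KO con. They were 9.52, 8.29, 7.94, 10.35 and 10.11 in WT stress and 7.98, 9.73, 8.16, 6.49 and 8.17 in WT con. The highest arrays were WT stress replicates 4 and 5, and the lowest was WT con replicate 4, so that the groups overlapped here as well.

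**Figure D2:**
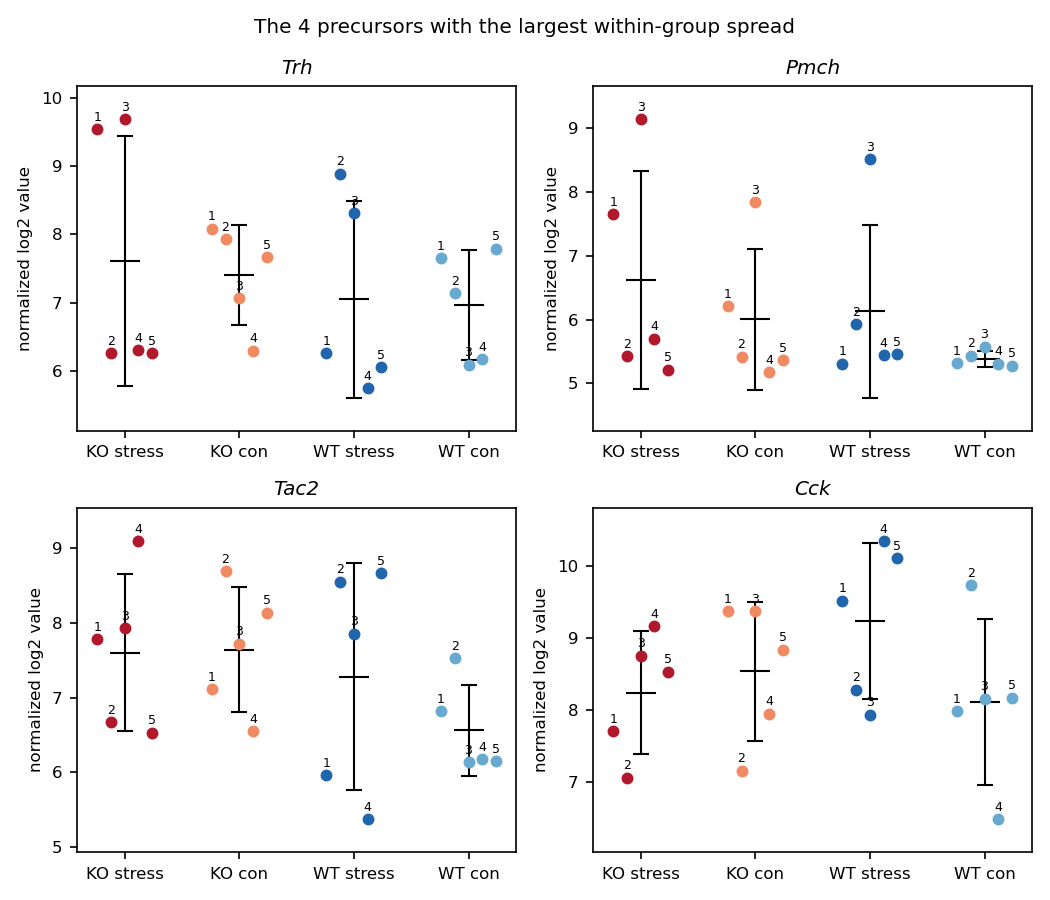
Normalized log2 values (y axis) of Trh, Pmch, Tac2 and Cck in the 4 groups (x axis), with 1 point per array, its replicate number above it, and bars for the mean ± SD of 5 arrays. Trh splits each group into low and high arrays, and Pmch exceeds 7 in only 4 arrays, 3 of them with the number 3.

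Among the limbic peptides, Adcyap1 encodes PACAP, a peptide of stress circuits. It read 7.79, 5.99, 7.97, 7.56 and 6.83 in KO stress, and 6.78, 6.73, 6.66, 6.73 and 6.68 in KO con. It read 5.82, 7.36, 6.92, 6.01 and 7.53 in WT stress, and 6.16, 6.89, 5.77, 6.39 and 6.71 in WT con. The KO con arrays were the tightest, with an SD of 0.05, against SDs of 0.82 in KO stress, 0.78 in WT stress and 0.44 in WT con.

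Nts, the precursor of neurotensin, and Gal, that of galanin, were added to the genes given in full after their values were seen. Nts read 8.83, 8.35, 9.0, 7.11 and 7.38 in KO stress, 8.01, 9.0, 7.92, 7.72 and 8.31 in KO con, 6.28, 8.84, 8.08, 6.66 and 6.30 in WT stress, and 7.88, 8.30, 7.95, 7.83 and 7.99 in WT con. The 3 lowest of all its values were WT stress replicates 1, 5 and 4, and WT con was the tightest group (SD 0.18). Gal exceeded 7 only in KO stress replicates 1 (7.53) and 3 (7.21), where Trh and Pmch were high too, and it lay between 5.18 and 6.74 in the other 18 arrays. Scg2, secretogranin II, a granin of dense core vesicles, ranged over 2.75-fold and was likewise highest in KO stress replicate 1 (10.39) and lowest in WT stress replicate 4 (8.93).

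Several of the wide-ranging precursors varied together. After subtraction of the group means, the 7 members at or above the 95th percentile other than Pmch form 21 pairs, and in 8 of them the correlation over the 20 arrays had an adjusted permutation p under 0.05 by both Pearson's r and Spearman's rho, all 8 above 0. Pmch was left out because 4 arrays stand apart. The pairs were chosen after the spread had been seen, and arrays of a group share normalization and dissection. How often other probe sets of similar spread correlate was not computed, so 8 of 21 cannot be read as particular to the precursors. Trh and Scg2 had r = 0.91 (permutation p = 2e-05, adjusted p = 2.1e-04, rho = 0.78, adjusted p = 0.00301), and r was 0.92 without the 2 arrays farthest from the median of Trh. Trh and Gal had r = 0.90 (permutation p = 2.1e-04, adjusted p = 0.00147, rho = 0.87, adjusted p = 0.00301), and 0.80 without the 2 arrays. Trh and Nts had r = 0.81 (permutation p = 6.4e-04, adjusted p = 0.00269, rho = 0.72, adjusted p = 0.0284), and 0.77 without the 2 arrays. Cck took part in none of the 8 pairs, with r between -0.49 and 0.13 against the other 6 genes.

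As Trh falls into lower and upper arrays, its relations were also taken within each, without subtracting group means. In the 11 upper arrays Trh and Gal had r = 0.84 (permutation p = 0.00165, rho = 0.72), Trh and Scg2 r = 0.72 (permutation p = 0.0115, rho = 0.69) and Trh and Nts r = 0.70 (permutation p = 0.0188, rho = 0.67). In the 9 lower arrays the same relations had r = 0.45, 0.51 and 0.35 (permutation p = 0.228, 0.163 and 0.385, rho = 0.30, 0.27 and 0.20).

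The same arrays differed in markers of neuron classes that a dissected block of amygdala and its borders could hold. A score was taken for each list of marker genes as the mean of its members' deviations from their means over all arrays. The score of hypothalamic and medial amygdala neurons, 23 of 25 genes measured, ranged from -0.16 to 0.56 in KO stress, from -0.36 to 0.30 in KO con, from -0.62 to 0.30 in WT stress and from -0.16 to 0.23 in WT con. It was highest in KO stress replicates 1 (0.56) and 3 (0.52), the arrays with the most Trh and Gal, and lowest in WT stress replicate 4 (-0.62), the array with the least Trh, Tac2, Gal and Scg2. The score of pallial neurons, 14 of 17 genes measured, ranged from -0.61 to 0.52 in KO stress, from -0.58 to 0.82 in KO con, from -0.39 to 0.98 in WT stress and from -0.37 to 0.06 in WT con. It was highest in WT stress replicates 4 (0.98) and 5 (0.86), the arrays with the most Cck. WT stress replicate 4 also had the highest choroid plexus score of all arrays (2.73). Pallial neurons include the excitatory neurons of the basolateral amygdala itself, and in bulk tissue fewer cells of a type and less RNA per cell cannot be told apart.

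Of 12 relations between the 4 widest-ranging members and 3 such scores, 2 had an adjusted permutation p under 0.05, after subtraction of the group means. Trh rose with the hypothalamic and medial amygdala score (r = 0.78, permutation p = 0.0036, adjusted p = 0.0216, rho = 0.725, permutation p = 0.00407, adjusted p = 0.0244), and r was 0.735 without the 2 arrays with the most extreme scores. Within the 11 upper arrays of Trh this relation had r = 0.62 (permutation p = 0.0432), and within the 9 lower arrays r = 0.63 (permutation p = 0.0587). Cck rose with the pallial score (r = 0.73, permutation p = 3.9e-04, adjusted p = 0.00468, rho = 0.74, permutation p = 8.7e-04, adjusted p = 0.0104), and r was 0.65 without the 2 extreme arrays. For Pmch no pooled value is given, because its 4 high arrays form a separate cluster, and within the 16 arrays under 7, a limit set on Pmch itself, its r with the hypothalamic and medial amygdala score was -0.05 (permutation p = 0.827). Tac2 had r = 0.49 with the hypothalamic and medial amygdala score (permutation p = 0.0999, adjusted p = 0.171) and 0.19 without the 2 extreme arrays. The part of tissue composition in the spread was not tested.

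**Figure D3:**
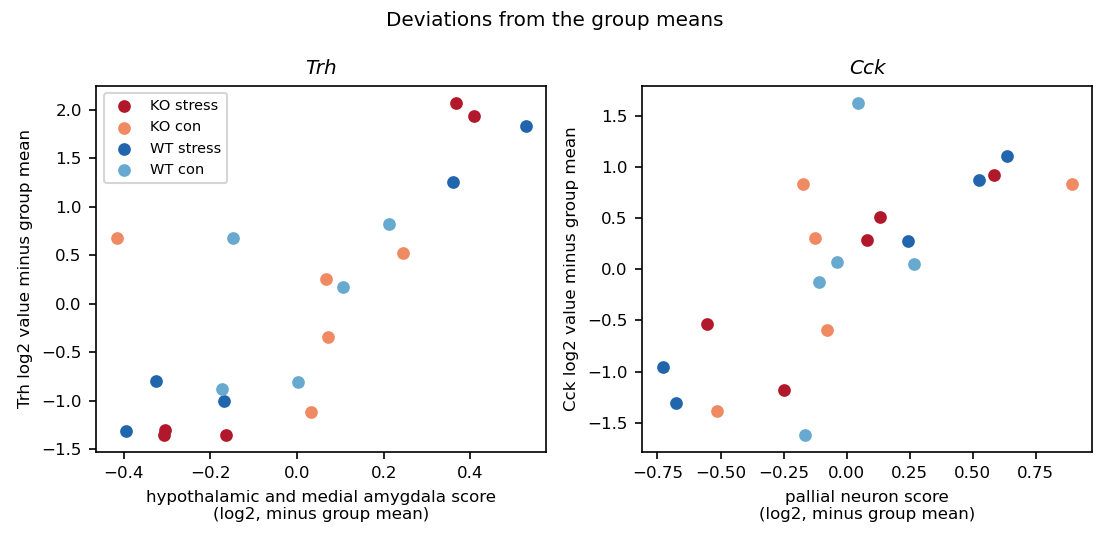
Deviation of each array from its group mean, in log2 units, for Trh against the hypothalamic and medial amygdala score (left) and for Cck against the pallial neuron score (right), with 1 point per array coloured by group. Both relations run upward, with r = 0.78 for Trh and r = 0.73 for Cck over 20 arrays.

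Promoter sequences are shown for 4 members that varied widely or are known targets of cyclic AMP signalling. RefSeq windows of GRCm38.p6, 250 bases before to 50 after the start of a gene, were matched for 27 of the 33 members, leaving out Npff, Vgf, Grp, Calcb, Npw and Npb. The full cyclic AMP response element TGACGTCA, read on both strands, was present in Scg2 and Cartpt, 2 of 27 members, and in 2.03% of all 27025 genes with a window. Its core TGACG, which is contained in the full element, was present in 11 of 27 members, including Trh, Cck, Gal, Nts and Adcyap1, and in 23.0% of all genes. Capitals mark the full element in Scg2 (chr1:79440040-79440140, minus strand) and Cartpt (chr13:99900741-99900841, minus strand), and the core, here as its reverse complement, in Trh (chr6:92244694-92244794, minus strand) and Cck (chr9:121495689-121495789, minus strand).
Scg2: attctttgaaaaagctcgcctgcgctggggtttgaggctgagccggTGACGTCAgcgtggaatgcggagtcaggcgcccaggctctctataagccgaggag
Cartpt: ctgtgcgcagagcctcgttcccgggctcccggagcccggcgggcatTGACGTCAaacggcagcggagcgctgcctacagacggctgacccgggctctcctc
Trh: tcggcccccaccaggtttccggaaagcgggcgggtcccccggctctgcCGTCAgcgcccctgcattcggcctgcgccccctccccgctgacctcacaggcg
Cck: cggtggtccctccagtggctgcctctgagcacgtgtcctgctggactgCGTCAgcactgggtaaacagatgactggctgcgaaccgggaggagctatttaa
A match is a description of the letters, and these matches are not tied to any difference in the arrays.

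The 4 groups were compared with limma on 4 group means, with adjustment over all probe sets. Beside the 0 of 33 members at the criterion, the share of all probe sets at the criterion was 0.0487% in KO con against WT con, 0.768% in KO stress against WT stress, 0.24% in WT stress against WT con and 0.139% in KO stress against KO con. It was 0.139% for KO against WT averaged over both conditions, 0.0556% for stress against con averaged over both genotypes and 0.591% for the interaction. At an unadjusted limma p under 0.05, 1, 3, 2 and 0 members passed in the 4 group comparisons in the order given, beside 3.57%, 9.28%, 3.54% and 1.13% of all probe sets. The averaged genotype comparison passed 5 members beside 12% of all probe sets, the averaged stress comparison 1 beside 1.67%, and the interaction 0 beside 2.52%. The methods' t-test gave 1 member at the criterion, Tac2 in KO con against WT con, and 3, 0, 1 and 0 members at an unadjusted p under 0.05 in the 4 group comparisons. No member reached an adjusted p under 0.05 by limma or by that test, the smallest by limma being 0.412 in the averaged genotype comparison. No member separated 2 groups completely, against 0.855%, 1.02%, 0.257% and 0.289% of all probe sets in the 4 group comparisons. With 5 arrays against 5 the exact two-sided permutation test cannot go below p = 0.00794, and p-values here measure the spread between mice.

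**Figure D4:**
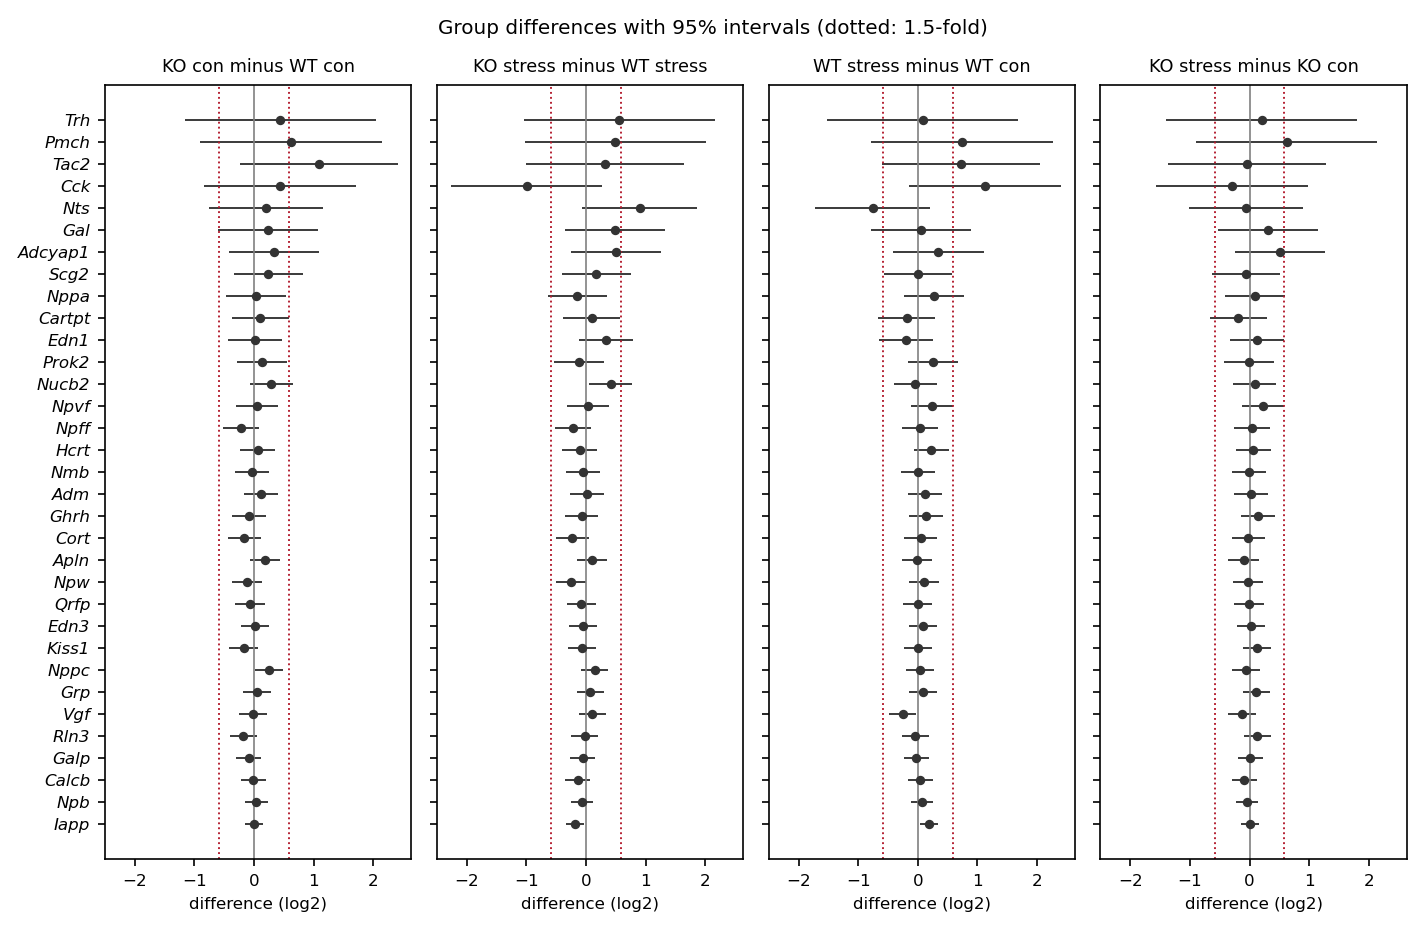
Difference of group means in log2 units with 95% intervals from limma (x axis) for the 33 precursors (y axis) in the 4 group comparisons, ordered by spread, with dotted lines at a change of 1.5-fold. Intervals of the precursors at the top are wide, and those of 21 to 24 precursors in a comparison lie wholly within 1.5-fold in either direction.

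How far these arrays bound a change differed between members. In KO con against WT con, 24 of 33 members had a 95% interval wholly within 1.5-fold in either direction, and the number was 22 in KO stress against WT stress, 21 in WT stress against WT con and 23 in KO stress against KO con. For the members with the widest spread the intervals left changes of several-fold in place. Trh in KO stress against WT stress differed by 0.56 (SE 0.76), with an interval from a ratio of 0.484 to one of 4.48.

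In mice under con, the comparison of genotypes asks how the precursors stood without the 1 min in water. Tac2 had the largest difference, 7.64 ± 0.84 in KO con and 6.56 ± 0.61 in WT con (SD, n = 5), which is 1.08 (SE 0.63) or 2.12-fold. Its limma p was 0.103 (adjusted p = 0.929) and its exact permutation p was 0.0635. By the methods' t-test p was 0.0485 (adjusted p = 0.739), which met the criterion, and the study listed Tac2 for this comparison. The smallest p belonged to Nppc, the precursor of C-type natriuretic peptide, the natriuretic peptide best known from brain and bone. Nppc read 7.14, 7.07, 7.05, 7.02 and 7.24 in KO con, against 6.90, 7.04, 6.79, 6.85 and 6.69 in WT con, and only the WT con array at 7.04 reached into the KO con range. The difference was 0.25 (SE 0.11, limma p = 0.0373, adjusted p = 0.929, exact permutation p = 0.0159). It did not pass an unadjusted p of 0.05 under quantile normalization, with a replicate block in all groups or with the striatal and central amygdala score as a covariate. Nppc read 7.19, 6.82, 7.13, 7.07 and 7.02 in KO stress, against 6.70, 7.36, 6.89, 6.61 and 6.93 in WT stress, where the groups overlapped widely. The difference there was 0.15 (SE 0.11, exact permutation p = 0.325), and averaged over both conditions it was 0.20 (SE 0.08, limma adjusted p = 0.412).

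In stressed mice, Nucb2, Iapp and Npw passed an unadjusted p of 0.05. Nucb2 encodes nucleobindin 2, the precursor of nesfatin-1, a peptide that lowers food intake. It read 8.77, 8.40, 8.44, 8.32 and 8.30 in KO stress, against 7.50, 8.47, 8.39, 8.01 and 7.76 in WT stress. In con it read 8.29, 8.54, 8.24, 8.46 and 8.28 in KO and 7.53, 8.38, 8.15, 8.19 and 8.10 in WT. The KO arrays kept to a narrow band in both conditions, while WT stress replicate 1 and WT con replicate 1, the arrays that stand apart, were the lowest 2 of all 20. The difference was 0.42 in stress (SE 0.17, limma p = 0.0255, adjusted p = 0.530, exact permutation p = 0.103) and 0.29 in con (SE 0.17, exact permutation p = 0.0714). Averaged over both conditions it was 0.36 (SE 0.12, 95% interval 0.10 to 0.61, limma adjusted p = 0.412), the member with the smallest unadjusted p in any comparison, and 0.22 (SE 0.09, limma adjusted p = 0.588) without both arrays that stand apart. With the hypothalamic and medial amygdala score as a covariate the difference of Nucb2 was 0.19 in stress (SE 0.14), which no longer passed an unadjusted p of 0.05, and 0.23 averaged (SE 0.10). The difference in stress did not pass without WT stress replicate 1 either. Over all alternatives other than single arrays left out, the difference of Nucb2 lay between 0.19 and 0.44 in stress and between 0.22 and 0.38 averaged.

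Iapp encodes islet amyloid polypeptide of the calcitonin family, a hormone of pancreatic beta cells that acts on hindbrain neurons. It read 5.08, 4.98, 4.98, 5.01 and 4.78 in KO stress and 4.98, 4.98, 4.90, 4.98 and 4.98 in KO con. It read 5.42, 5.16, 5.23, 4.98 and 4.98 in WT stress and 4.98, 4.99, 4.94, 4.90 and 4.98 in WT con. In 10 of the 20 arrays the value was the same, 4.98, and only 14.8% of probe sets had a lower mean. Iapp differed by -0.19 in KO stress against WT stress (SE 0.07, limma p = 0.0177, adjusted p = 0.530, exact permutation p = 0.119) and by 0.19 in WT stress against WT con (SE 0.07, limma p = 0.0143, adjusted p = 1, exact permutation p = 0.0794), which share the WT stress arrays. The interaction was -0.19 (SE 0.10, limma adjusted p = 1). Without WT stress replicate 1, the highest array, the 2 differences were -0.12 and 0.13 (SE 0.06 each), and of these the first no longer passed an unadjusted p of 0.05. Npw, the precursor of neuropeptide W, was lower by 0.25 in KO stress compared with WT stress (SE 0.12, limma p = 0.0490, adjusted p = 0.530, exact permutation p = 0.0714). Npw did not pass an unadjusted p of 0.05 under quantile normalization, median centring, a minimum mean of 5, 2 groups alone, the methods' t-test, the hypothalamic and medial amygdala or the pallial covariate, or without both arrays that stand apart.

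The largest differences in stressed mice were those of Cck and Nts, and neither passed the test. Cck averaged 8.24 ± 0.85 in KO stress and 9.24 ± 1.08 in WT stress, a difference of -1.0 (SE 0.61, exact permutation p = 0.151), and Nts averaged 8.13 ± 0.85 in KO stress and 7.23 ± 1.16 in WT stress (SD, n = 5), a difference of 0.90 (SE 0.46, limma p = 0.0643, exact permutation p = 0.190). In the same comparison 13 of 14 pallial markers were lower and 19 of 23 hypothalamic and medial amygdala markers were higher in KO stress. All 14 meningeal and 11 of 12 choroid plexus markers were higher there too, where 41.3% of all probe sets were above 0. Without WT stress replicate 1 the difference of Nts was 0.66 (SE 0.47), and with the hypothalamic and medial amygdala score as a covariate it was 0.12 (SE 0.28). The difference of Cck was -0.38 (SE 0.45) with the pallial score as a covariate and -0.45 (SE 0.61) with the hypothalamic and medial amygdala score. Over all alternatives other than single arrays left out, Cck lay between -1.04 and -0.38 and Nts between 0.12 and 0.93. The part of tissue composition in these differences was not tested.

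The comparison of WT stress with WT con asks what the stressor did in wild type mice. Vgf, a granin-like precursor that neurons make in response to activity and growth factors, read 8.38, 8.58, 8.63, 8.0 and 8.11 in WT stress, against 8.77, 8.46, 8.73, 8.59 and 8.41 in WT con. It read 8.48, 8.39, 8.58, 8.53 and 8.27 in KO stress, against 8.61, 8.61, 8.49, 8.67 and 8.5 in KO con. The lowest 2 arrays of all 20 were WT stress replicates 4 and 5, and stressed and con arrays overlapped in both genotypes. The difference was -0.25 in WT (SE 0.11, limma p = 0.0323, adjusted p = 1, exact permutation p = 0.127) and -0.13 in KO (SE 0.11, exact permutation p = 0.0873). With the WT arrays paired by replicate number the WT difference was the same, -0.25 (SE 0.11), and no longer passed an unadjusted p of 0.05. Averaged over both genotypes it was -0.19 (SE 0.08, 95% interval -0.35 to -0.03, limma adjusted p = 1). Without WT stress replicate 4 the WT difference was -0.17 (SE 0.10), and without both arrays that stand apart it was -0.22 (SE 0.12), neither passing an unadjusted p of 0.05. Without both those arrays the averaged difference was -0.17 (SE 0.08) and did not pass either.

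Cck differed most between WT stress and WT con, by 1.13 (SE 0.61, limma p = 0.0777, adjusted p = 1, exact permutation p = 0.151), and 13 of 14 pallial markers were higher in WT stress as well, where 62.8% of all probe sets were above 0. In this comparison 10 of 12 choroid plexus and 8 of 14 meningeal markers were higher too. With the pallial score as a covariate the difference of Cck was 0.29 (SE 0.47), and over all alternatives other than single arrays left out it lay between 0.29 and 1.20. Nts was lower by 0.76 in WT stress (SE 0.46, exact permutation p = 0.159), and Pmch and Tac2 differed by 0.75 and 0.72 (exact permutation p = 0.151 and 0.317). The difference of Nts was -0.13 (SE 0.36) with the pallial score as a covariate and -0.25 (SE 0.26) with the hypothalamic and medial amygdala score, and leaving out single arrays moved it between -0.52 (WT stress replicate 1 left out) and -1.16 (WT stress replicate 2 left out). Over the other alternatives the difference of Nts lay between -0.87 and -0.13. The part of tissue composition in these differences was not tested.

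In KO stress against KO con no member passed an unadjusted p of 0.05. The smallest p was that of Adcyap1, which averaged 7.23 ± 0.82 in KO stress and 6.72 ± 0.05 in KO con (SD, n = 5), a difference of 0.51 (SE 0.36, limma p = 0.172, adjusted p = 1, exact permutation p = 0.127). KO stress replicate 2 had the lowest value of these 10 arrays, 5.99, and 4 of 5 KO stress arrays lay above all KO con arrays. Without that replicate the difference was 0.82 (SE 0.32, limma adjusted p = 1), which met the criterion, and without KO stress replicate 3 it was 0.33 (SE 0.37). KO stress replicate 2 also had the highest meningeal score (1.55) and a high choroid plexus score (1.94), marks of tissue at the border of the block, and their part in its value was not tested. Pmch differed by 0.62 (SE 0.73, exact permutation p = 0.516), and by -0.0046 without KO stress replicate 3 and 1.08 without KO con replicate 3.

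The interaction asks whether the stressor acted differently in the genotypes. The largest value was that of Cck, -1.43 (SE 0.86, limma adjusted p = 1), followed by Tac2 at -0.76 (SE 0.89) and Nts at 0.70 (SE 0.65). With the pallial score as a covariate the value of Cck was -0.60 (SE 0.63), and with the hypothalamic and medial amygdala score -0.93 (SE 0.82). Over all alternatives other than single arrays left out, the value of Cck lay between -1.54 and -0.60. The intervals of all 33 members included 0.

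**Figure D5:**
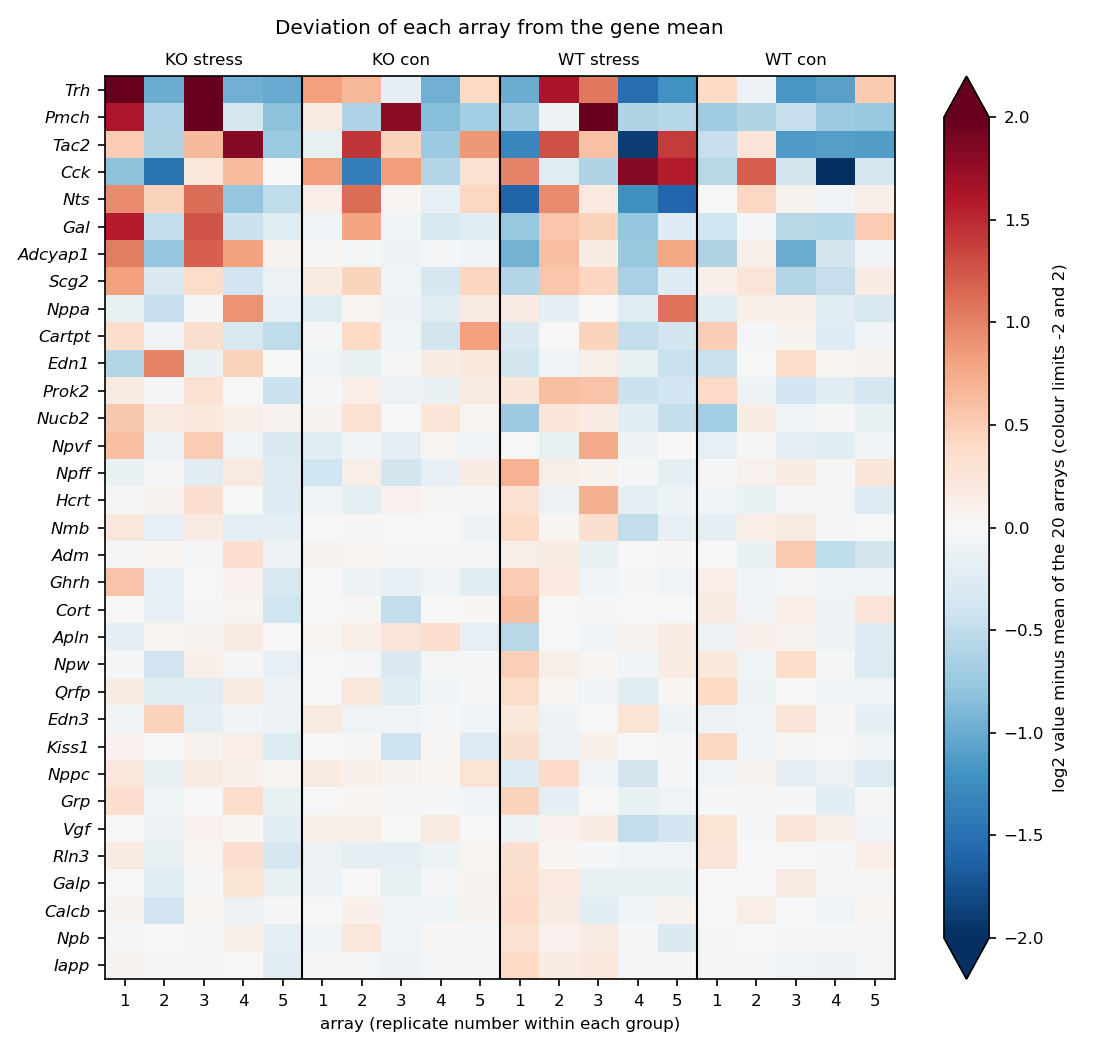
Deviation of each array (columns, by group and replicate number) from the mean of the gene over 20 arrays, in log2 units, for the 33 precursors (rows, by falling spread). The upper rows hold strong colours in single arrays of every group, and WT stress replicate 1 is the highest array for 9 members, a count not taken over all probe sets.

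The other members are given by role. Of the limbic precursors, Cartpt, which encodes the feeding and stress peptide CART, ranged from 6.61 to 7.95. Grp and Nmb, bombesin-like peptides, and Cort, a somatostatin relative of cortical interneurons, ranged over at most 1.10 and had differences between -0.23 and 0.11 in the 4 group comparisons. Cort differed by -0.19 between KO and WT on average over both conditions (SE 0.09, limma adjusted p = 0.412), with an unadjusted p below 0.05. As a group the 10 limbic members had a median difference of 0.22 in KO con against WT con, with 8 above 0 and 0 past the unadjusted threshold, and of 0.21 in KO stress against WT stress, with 7 above 0 and 0 past it. The median of all probe sets was 0.00 and -0.03, and 50.1% and 41.3% of them were above 0.

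Of the precursors listed here as hypothalamic, a label that does not hold for every member, 12 of 13 were measured. Pmch apart, their differences in the 4 group comparisons lay between -0.25 and 0.25. Hcrt, the orexin precursor of arousal neurons, ranged from 5.56 to 6.53 and Npvf, the precursor of RFamide peptides, from 4.85 to 5.89, both being highest in WT stress replicate 3, where Pmch was at 8.51. Averaged over both conditions, Npff, the neuropeptide FF precursor, differed by -0.22 (SE 0.10) and Npw by -0.18 (SE 0.08) between KO and WT, both at an unadjusted p below 0.05 and each with a limma adjusted p of 0.412. The group had a median difference of -0.07 in both genotype comparisons. In KO con against WT con 5 of 12 members were above 0, beside 50.1% of all probe sets. In KO stress against WT stress 2 of 12 were, beside 41.3%. Ghrh, Kiss1, Npb, Prok2, Qrfp, Galp and Rln3 did not pass an unadjusted p of 0.05 by limma in any comparison, and Rln3 passed by the methods' t-test in KO con against WT con.

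Of the vascular and calcitonin group, 8 of 10 members were measured. Edn1, endothelin 1 of vessel walls, ranged from 6.36 in KO stress replicate 1 to 7.94 in KO stress replicate 2, and Nppa, atrial natriuretic peptide, reached 7.05 in WT stress replicate 5 and 6.87 in KO stress replicate 4, with the other 18 arrays between 5.51 and 6.15. Edn3, Adm, Apln and Calcb, for endothelin 3, adrenomedullin, apelin and the second CGRP, had differences between -0.14 and 0.18 in the 4 group comparisons and did not pass in any comparison. The median difference of the group was 0.02 in KO con against WT con and 0.06 in WT stress against WT con. Of the 33 members, WT stress replicate 1 was the highest array for 9 and the lowest for 3, WT stress replicate 4 was extreme for 8 and KO stress replicate 5 for 7. WT stress replicate 1 also had the highest median of all arrays (6.82). The share of all probe sets with these arrays at an extreme was not computed, so these counts cannot be read as particular to the precursors.

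The machinery around the precursors was read from 2 further lists. Of 19 measured genes of precursor processing and vesicles, 15 were above 0 in KO stress against WT stress and 2 passed an unadjusted p of 0.05, beside 41.3% and 9.28% of all probe sets. These were Qpct, glutaminyl cyclase, which caps peptide ends and averaged 7.88 ± 0.23 in KO stress and 7.39 ± 0.46 in WT stress (0.48, SE 0.18), and Ece1, an endothelin-converting enzyme, at 8.69 ± 0.20 and 8.42 ± 0.27 in the same order (0.27, SE 0.12). In KO con against WT con 16 of the 19 processing genes were above 0 as well, beside 50.1% of all probe sets, and 0 passed. Of 46 measured peptide receptors, 3 passed higher and 2 lower in KO stress against WT stress, a share near that of all probe sets. The smallest p belonged to Adcyap1r1, the PACAP receptor, at 10.04 ± 0.16 in KO stress and 9.77 ± 0.15 in WT stress (0.27, SE 0.10), and to Vipr1, a receptor of VIP and PACAP, at 6.09 ± 0.25 in KO stress and 6.61 ± 0.37 in WT stress (-0.51, SE 0.20). In the interaction these 2 receptors had opposite signs, 0.36 for Adcyap1r1 (SE 0.14) and -0.69 for Vipr1 (SE 0.29), and Vipr1 met the criterion there. Each limma adjusted p of these genes in these comparisons was at least 0.530.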

How the data were processed

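Amygdala RNA of 20 mice was hybridized to whole-transcript gene arrays. The authors used ExonRMA within ArrayAssist for summarization and normalization, then variance stabilization, and deposited the resulting log2 values, which were used without further scaling. No probe-level intensities were used, so background and summarization could not be varied. No source used here names a genome build for the probes. Symbols come from the platform's probe table, in which 21776 probe sets have 1 symbol, 1618 several and 5373 none. With 1 probe set per member, no rule for choosing among probe sets applied.

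Groups were compared with limma 3.58.1 (R 4.3.3; lmFit with a mean per group, eBayes, 16 residual degrees of freedom, Benjamini-Hochberg over 28767 probe sets). Exact permutation tests of single members used all 252 splits of 5 against 5, and correlations used 100000 permutations within groups, drawn with numpy in Python. The members, gene lists and tests were chosen with earlier results of these data known. Genes given in full were members at the criterion in any of 7 contrasts, the member with the smallest p in each contrast and the 4 with the largest pooled within-group SD, and others were added after their values were seen. Scripts were tested on simulated data.

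Alternatives were the methods' t-test, 2 groups alone, quantile normalization, median centring, a minimum mean of 5, trend and robust eBayes, replicate blocks, marker scores as covariates, and leaving out each array or both arrays that stand apart. The labels number replicates without saying what a number shares. Deviations of same-numbered arrays correlated above 0.1 in every pair only between WT stress and WT con (0.162 to 0.42). On that rule alone the number was taken to pair these 2 groups. Of 5 arrays there, 3 correlated best with their own number, as did 3 between KO con and WT con, so a pairing is not shown.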

Additional observations from a re-analysis of the deposited data

Results flagged for a closer look

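In 15 of the 132 sets of 5 arrays (33 precursors in 4 groups), 1 array lay far from the other 4, with a gap over 0.71 of the whole range. For normally distributed values without ties, chance gives about 1 such set in 20. Some flagged precursors share 1 value in several arrays (Iapp in 10, Npw in 6, Grp in 4), which that rate does not cover. The share over all probe sets was not computed, so the count of 15 cannot be read as an excess. In KO stress this was Edn3 at 6.887 in replicate 2. In KO con the arrays were Gal at 6.74 in replicate 2, Nmb at 6.227 in replicate 5, Cort at 6.124 in replicate 3, Edn3 at 6.609 in replicate 1, Npw at 5.75 in replicate 3 and Iapp at 4.897 in replicate 3, where the other 4 arrays shared 4.979. In WT stress they were Cort at 7.22 in replicate 1, Pmch at 8.506 in replicate 3 and Npvf at 5.89 in replicate 3. In WT con they were Grp at 5.491 in replicate 4, Ghrh at 6.316, Kiss1 at 6.949 and Qrfp at 6.247 in replicate 1, and Galp at 6.048 in replicate 3. Pmch had the widest gap in log2 units, its other 4 WT stress arrays lying between 5.312 and 5.927.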

How the results depend on the processing

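The number of precursors at the criterion was 0 in each comparison, and it became 1 in KO con against WT con (Tac2) under the methods' t-test and with the 2 groups alone. It became 1 in KO stress against WT stress (Nts) with a replicate block in all groups. With the block in the WT groups, which the replicate numbers were taken to pair, it stayed 0. At an unadjusted p of 0.05 Iapp still passed there and Vgf did not. Leaving out each array in turn gave 0 to 0 in KO con against WT con, 0 to 2 in KO stress against WT stress, 0 to 2 in WT stress against WT con, 0 to 1 in KO stress against KO con, 0 to 1 in each averaged comparison and 0 to 1 in the interaction. The genes were Nts (without KO stress replicate 4 or 5, or WT stress replicate 2 or 3), Cck (without WT stress replicate 2 or 3, or WT con replicate 2) and Adcyap1 (without KO stress replicate 2). The share of all probe sets at the criterion under these alternatives was not counted. All 19 single differences followed were below the criterion as reported, so keeping the call means staying below it. Some alternatives could not move a difference. Other tests on the same values, and leaving out an array outside the 2 groups compared, left it unchanged. Taking the lowest probe set per gene, also counted, changed nothing, as each member has 1. Of 598 values of these 19 differences, 582 kept direction and call, 14 newly passed the criterion and 2 changed sign. These were Trh in the averaged genotype comparison, 0.50 as reported and -0.15 with the hypothalamic and medial amygdala score as a covariate, and Pmch in KO stress against KO con, 0.62 as reported, and between -0.0046 (without KO stress replicate 3) and 1.08 (without KO con replicate 3) with single arrays left out. The causes were not tested. No alternative gave a precursor at an adjusted p under 0.05. The 8 precursors at or above the 95th percentile of spread became 8 to 9 under other settings and 7 to 9 without single arrays, alternatives chosen after seeing the data. Normalized values keep no probe background, which limits precursors of low signal such as Iapp.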
